A study of Mus musculus with 4 samples.

Results

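The genes of glycogen synthesis and breakdown described here are 9 of the 38293 in the deposited table. They are Gyg, Gys1 and Gbe1 for synthesis, Pgm1 and Pgm2 as phosphoglucomutases, Pygl and Pygb as phosphorylases, and Ppp1r3c and Ppp1r3g as targeting subunits of protein phosphatase 1 (PP1). They were picked by symbol as enzymes and regulators of glycogen, and the cKO against control values were known when the list was made. The muscle phosphorylase gene Pygm was not among them and is described with the wider pathway. The levels and fold changes of the 9 genes in this contrast are therefore a description, with no test of their own.

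Glycogen is the branched glucose polymer that cells keep as a fuel reserve, and embryonic heart muscle is known for storing much of it. Glycogenin primes the polymer, glycogen synthase lengthens it and the branching enzyme adds branches, while phosphorylase removes glucose from it as glucose 1-phosphate. Phosphoglucomutase joins both directions to glycolysis by interconverting glucose 1-phosphate and glucose 6-phosphate, and targeting subunits hold PP1 on the particle, where it activates the synthase and inactivates phosphorylase. HIF-1, the oxygen-regulated transcription factor whose alpha subunit is encoded by Hif1a, binds DNA at the core letters ACGTG or GCGTG, and in human cells low oxygen is known to raise several of these transcripts, GYS1, GBE1, PGM1 and PPP1R3C among them.

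Poly(A) RNA came from the ventricles of individual mouse embryos of stage E12.5 on a C57BL/6 background, littermates matched by somite count, once atria and valves had been cut away. The cKO group was Hif1alphaflox/flox/Nkx2.5Cre/+, that is, homozygous for the floxed allele and heterozygous for Cre at Nkx2-5, a locus active in heart muscle precursors, with 2 embryos (replicates 2 and 3). The control group was Hif1alphaflox/flox/Nkx2.5+/+, which carried both floxed alleles but lacked Cre, also 2 embryos (replicates 2 and 3). With 2 embryos a group, p-values rest on the spread between these 4 libraries, for each gene pooled in part with that of all other genes. Among these libraries none came from an embryo with Cre but no floxed allele, so for every value below the loss of Hif1a and the presence of Cre at Nkx2-5 cannot be told apart.

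Total expected counts were 9980051 and 19801300 in the cKO libraries (replicates 2 and 3), against 8561687 and 8989184 in the controls. Levels are given as CPM, counts scaled to a common library size by TMM. Over whole genes, Hif1a stood at 716 and 663 CPM in cKO against 530.1 and 552 CPM in control, which does not check the deletion, since reads from remaining exons would be counted too; the log2 fold change of 0.35 ± 0.09 did not pass (edgeR adjusted p = 0.317). Nkx2-5 stood at 44.3 and 42.1 CPM in cKO and 55.9 and 64.9 CPM in control. Xist and Ddx3y showed cKO replicate 3 to be the 1 male among the 4 libraries. All 9 genes lie on autosomes, and whether sex bears on their levels was not tested. The 7 markers fixed for ventricular muscle, such as Myh7, Tnnt2 and Myl2, were all measured and together stood at 33098 and 31696 CPM in cKO against 34775 and 33658 CPM in control. The sum of this ventricular list did not overlap between the groups and was lower in cKO. Of the 9 marker lists for other tissues, 3 had sums that did not overlap between groups: endothelium and endocardium (1318 and 1187 CPM in cKO, 1401 and 1464 in control), smooth muscle and pericytes (641 and 756 in cKO, 1029 and 1050 in control) and liver (2.53 and 2.26 in cKO, 0.473 and 0.662 in control). Gene by gene, 38.2% of all genes tested did not overlap, which is a share of single genes and not of sums over lists. Neither the gap of the ventricular list nor the 3 of 9 other lists is read as a result. In the smooth muscle list the gap lay in Acta2 (497 and 599 in cKO, 833 and 862 in control) and Tagln (118 and 122 in cKO, 169 and 151 in control). Pdgfrb (25.9 and 33.8 in cKO, 26.7 and 36.6 in control) and Myh11 (0.405 and 0.452 in cKO, 0.355 and 0.441 in control) overlapped. The sum of this list therefore mostly follows Acta2 and Tagln, and is not read as a change in smooth muscle or pericytes. The test covered 8 of 8 endothelial and endocardial genes, 3 of 4 smooth muscle genes and 1 of 6 liver genes. Where 0.511% of all genes tested passed, no gene of these 3 lists did. The 1 marker that did was Krt19 of the epicardial list, lower at 25.4 and 17.9 CPM in cKO against 41.4 and 45.4 CPM in control, while the sum of that list overlapped (311 and 229 in cKO, 283 and 321 in control). Fgb of the liver list was at 0 in all libraries. In bulk tissue, fewer cells of a type and less RNA per cell cannot be told apart.

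Short upstream sequences are shown first because the factor encoded in part by Hif1a reads a known core: those of the 3 genes called below and that of Ppp1r3c, which was not called and held the most matches. They come from RefSeq on GRCm38.p6, run 5′ to 3′ on the gene's strand, and carry in capitals each match to ACGTG or GCGTG on either strand (CACGT and CACGC on the strand shown). Positions count back from the RefSeq start, whose preceding base is -1; for all 4 genes shown that start lies inside the GENCODE gene. The Pygl stretch covers bases -157 to -1 (chr12:70227684-70227840, minus strand) and the Ppp1r3c stretch bases -250 to -50 (chr19:36736654-36736854, minus strand), the parts of each window of 250 bases that lie outside every GENCODE exon. For Pgm1, whose whole window overlaps exons, those of the neighbouring Itgb3bp among them, and for Ppp1r3g, only 25 bases around each match are given. Those are chr4:99929233-99929257 and chr4:99929260-99929284 for Pgm1 and chr13:35967858-35967882 for Ppp1r3g, all on the plus strand.
Pygl: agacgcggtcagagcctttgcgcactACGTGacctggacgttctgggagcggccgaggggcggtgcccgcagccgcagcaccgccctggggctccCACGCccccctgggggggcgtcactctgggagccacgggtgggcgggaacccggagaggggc
Ppp1r3c: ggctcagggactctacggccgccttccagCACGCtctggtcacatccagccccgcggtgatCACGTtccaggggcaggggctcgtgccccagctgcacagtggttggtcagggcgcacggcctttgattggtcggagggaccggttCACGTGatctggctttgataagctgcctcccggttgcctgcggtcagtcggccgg
Pgm1, match at -208: tggaatgtatACGTGacactctagt
Pgm1, match at -181: aatcacagtaACGTGctgaactctt
Ppp1r3g, match at -38: gaggaccttgACGTGctctagtgct

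Over the 250 bases before the start, 7 of the 9 genes held at least 1 match and Gys1 and Gbe1 held 0. Among all 32851 RefSeq windows of that length, from 27025 genes, 38.6% held a match. ACGTG was found in 16.6% of all windows and GCGTG in 28.2%. Both cores contain the letters CG, and the windows of the 9 genes held from 48.8% (Gbe1) to 69.2% (Pygl) G or C. The share over all windows was not matched for base composition, so nothing is read from its difference to 7 of 9. Ppp1r3c had 4 matches, of which 1 pair overlaps as the palindrome CACGTG, a sequence that 6.02% of all windows hold and that other factors also bind. Pygl, Pygb and Pgm1 had 2 each, and Gyg, Pgm2 and Ppp1r3g had 1 each. A match marks letters, not a bound site. Genes holding matches include the 3 called below as well as Pygb and Ppp1r3c, whose log2 fold changes lay near 0.

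Ppp1r3g, Pygl and Pgm1 were lower in cKO, by 9.56-fold, 2.28-fold and 1.49-fold between fitted levels, and passed edgeR's threshold of 0.05 for the adjusted p over all genes. The synthesis genes Gyg, Gys1 and Gbe1, the phosphorylase gene Pygb, Pgm2 and Ppp1r3c were not called. That is 3 of 9 genes, all lower, where 0.511% of the 13711 genes tested passed in either direction, 0.365% as lower and 0.146% as higher. That split of 50 lower and 20 higher genes depends on cKO replicate 2, without which 69 were lower and 72 higher; without control replicate 3, 24 were lower and 15 higher. DESeq2 and limma-voom called the same 3, where they called 0.7% and 0.532% of all genes. Since the list was drawn up with this contrast known, nothing is read from the difference between these shares. All 9 genes passed the filter on low counts, though Ppp1r3g did so through the control libraries alone. The median log2 fold change was -0.28 over the 9 genes and -0.000 over all genes tested. Levels did not overlap between the groups for 8 of the 9 genes, 6 lower and 2 higher in cKO, where 38.2% of all genes did not overlap (18.8% lower and 19.4% higher).

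**Figure D1:**
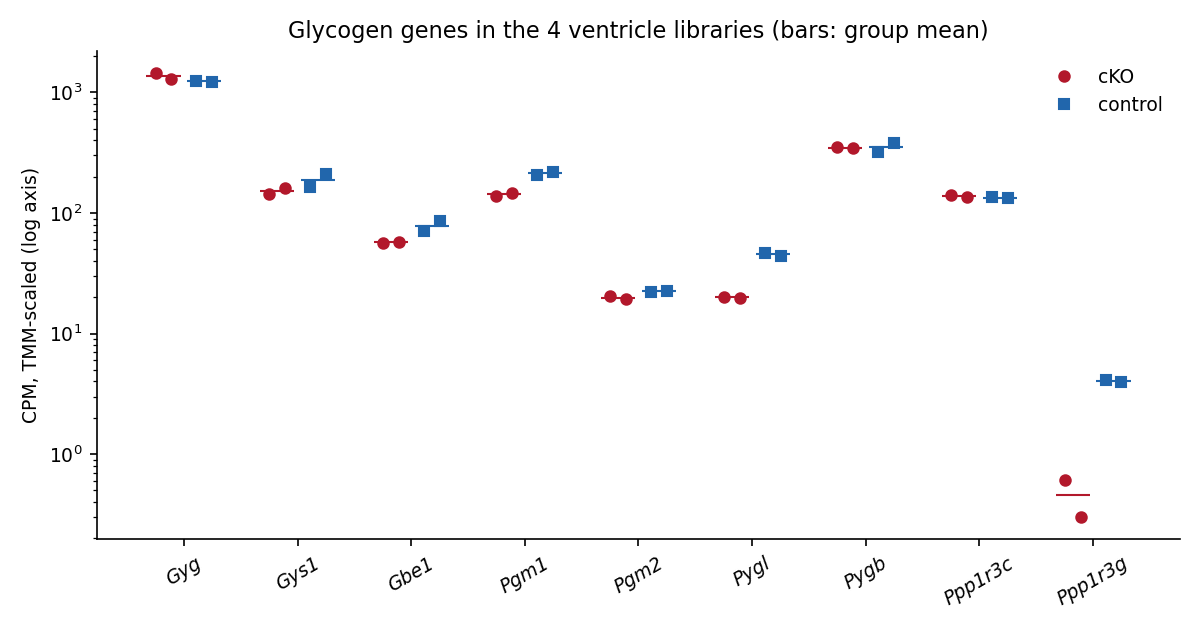
Level of each of the 9 genes in every library, as TMM-scaled CPM on a log axis; red circles are cKO replicates 2 and 3, blue squares control replicates 2 and 3, and bars the group means (n = 2 each). Ppp1r3g, Pygl and Pgm1 show the widest gaps between groups, and the Pygb points overlap.

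Glycogenin, encoded by Gyg (ENSMUSG00000019528, chromosome 3, 20122084 to 20155317, minus strand, GRCm38 like all gene positions here), had the highest level of the 9 genes, per length as well. It stood at 1452 and 1298 CPM in cKO and at 1247 and 1220 CPM in control, each pair in the order of replicates 2 and 3. Both cKO libraries were above both controls, by a margin smaller than the gap between the cKO libraries. Its log2 fold change was 0.16 ± 0.09 (SE), which did not pass.

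Gys1 (ENSMUSG00000003865, chromosome 7, 45434844 to 45456619, plus strand) encodes the glycogen synthase of muscle and most other tissues. It had 144 and 162 CPM in cKO and 163 and 211 CPM in control. The higher cKO library and the lower control library nearly touched, and the controls differed by more than the group means. The log2 fold change of -0.28 ± 0.13 did not pass and ran from -0.46 without control replicate 2 to -0.08 without control replicate 3. The gene shares 310 exon bases with Ruvbl2 on the other strand, and without strand reads there cannot be assigned for certain.

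Gbe1 (ENSMUSG00000022707, chromosome 16, 70313949 to 70569716, plus strand) encodes the branching enzyme. Its levels were 56.2 and 57.7 CPM in cKO and 70.3 and 86.0 CPM in control. The cKO libraries lay close together and below both controls. Its log2 fold change, -0.46 ± 0.11, did not pass, and no setting tried called it. It ran from -0.59 without control replicate 2 to -0.30 without control replicate 3.

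Pgm1 (ENSMUSG00000025791, chromosome 4, 99929414 to 99987294, plus strand) encodes the main phosphoglucomutase. Older annotations exchange the mouse symbols Pgm1 and Pgm2, so the identifiers decide here. Pgm1 had 139 and 146 CPM in cKO and 207 and 219.5 CPM in control. All libraries of a group stood close together, with a clear gap between groups. Averages (± SD over 2 libraries) were 143 ± 5.22 CPM in cKO against 213 ± 9.04 CPM in control, and the log2 fold change of -0.58 ± 0.08 passed. It stayed between -0.62 and -0.53 with any 1 library left out, but passed in 0 of those 4 fits. Pgm1 shares 398 exon bases with Itgb3bp on the other strand, whose own expected counts, from 94.2 to 320 per library, were small beside the 1374 to 2914 of Pgm1.

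Pgm2 (ENSMUSG00000029171, chromosome 5, 64092950 to 64128351, plus strand) encodes a related enzyme that, in humans, acts mainly on pentose phosphates. It had 20.6 and 19.2 CPM in cKO and 22.3 and 22.4 CPM in control. The groups did not overlap, but the distance was small, with a log2 fold change of -0.17 ± 0.11 that did not pass.

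Pygl (ENSMUSG00000021069, chromosome 12, 70190811 to 70231488, minus strand) encodes the phosphorylase known as the liver form, which many other tissues also express. It fell to 20.2 and 19.9 CPM in cKO, against 47.0 and 44.2 CPM in control. Both cKO libraries were far below both controls, and the libraries of a group lay close together. Averages (± SD over 2 libraries) were 20.1 ± 0.240 CPM in cKO against 45.6 ± 2.00 CPM in control. The fitted log2 value, -1.19 ± 0.09, was called in all 12 fits, and ran from -1.23 to -1.14 with 1 library left out. Liver markers were at most 2.53 CPM in all, with Fgb at 0 everywhere and Alb at 0 in 3 libraries, and were higher in cKO. Macrophage markers summed to 29.7 and 33.8 CPM in cKO and 27.3 and 61.1 CPM in control, and erythroid markers to 2299 and 5490 CPM in cKO and 4408 and 5001 CPM in control. Both sets overlapped between the groups. Whether a change in any cell type takes part in the lower level of Pygl, or in the level of any other gene, was not tested. That holds for these lists and equally for the ventricular and endothelial lists and for Acta2 and Tagln.

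Pygb (ENSMUSG00000033059, chromosome 2, 150786735 to 150831758, plus strand) encodes the brain form of the same enzyme. It had 352 and 344 CPM in cKO and 321 and 382 CPM in control. Both cKO libraries lay between the controls. Its log2 value was -0.02 ± 0.10 and turned to 0.01 under upper-quartile scaling, so no direction is given for this gene.

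Ppp1r3c (ENSMUSG00000067279, chromosome 19, 36731731 to 36736653, minus strand) encodes the targeting subunit PTG, which brings PP1 to glycogen. It had 142 and 137 CPM in cKO and 136 and 132 CPM in control. The cKO libraries were just above the controls, and the nearest ones differed by less than the libraries of either group. The change of 0.06 ± 0.08 on the log2 scale missed the threshold.

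Ppp1r3g (ENSMUSG00000050423, chromosome 13, 35958839 to 35970388, plus strand) encodes another PP1 targeting subunit, known in mouse liver for driving glycogen storage after meals. Its expected counts were 6 and 6 in cKO, against 35 and 36 in control. In CPM this was 0.607 (95% Poisson interval 0.223 to 1.32) and 0.301 (0.111 to 0.656) in cKO, and 4.14 (2.88 to 5.75) and 3.97 (2.78 to 5.50) in control. The intervals cover counting error only and leave out the spread between embryos, so no comparison of the groups is read from them. The log2 fold change was -3.26 ± 0.44, the largest of the 9 genes and the least precise. It ran from -3.70 without cKO replicate 2 to -2.71 without cKO replicate 3, and was called in 1 of the 4 fits with a library left out, the one without cKO replicate 2.

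**Figure D2:**
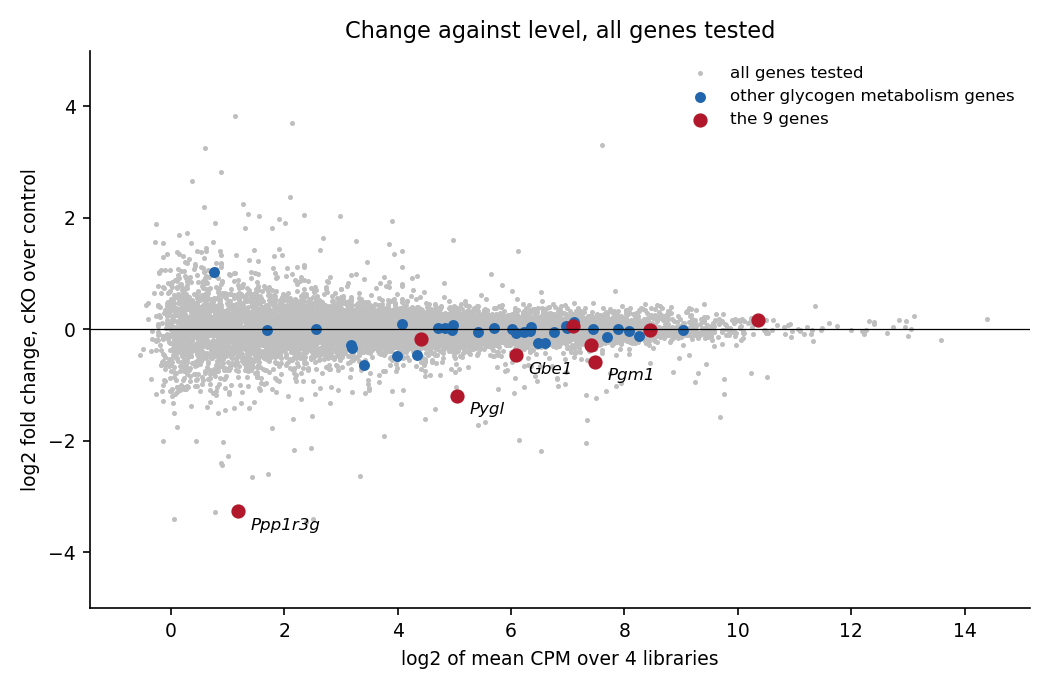
Log2 fold change (cKO over control) against the log2 of mean CPM for the 13711 genes tested (grey), the 32 measured genes of the wider glycogen list (blue) and the 9 genes (red); 18 grey points lie beyond the axis limit of 5. Ppp1r3g stands at the low-level end at -3.26, and Pygl at -1.19 is the next lowest of the 9.

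**Figure D3:**
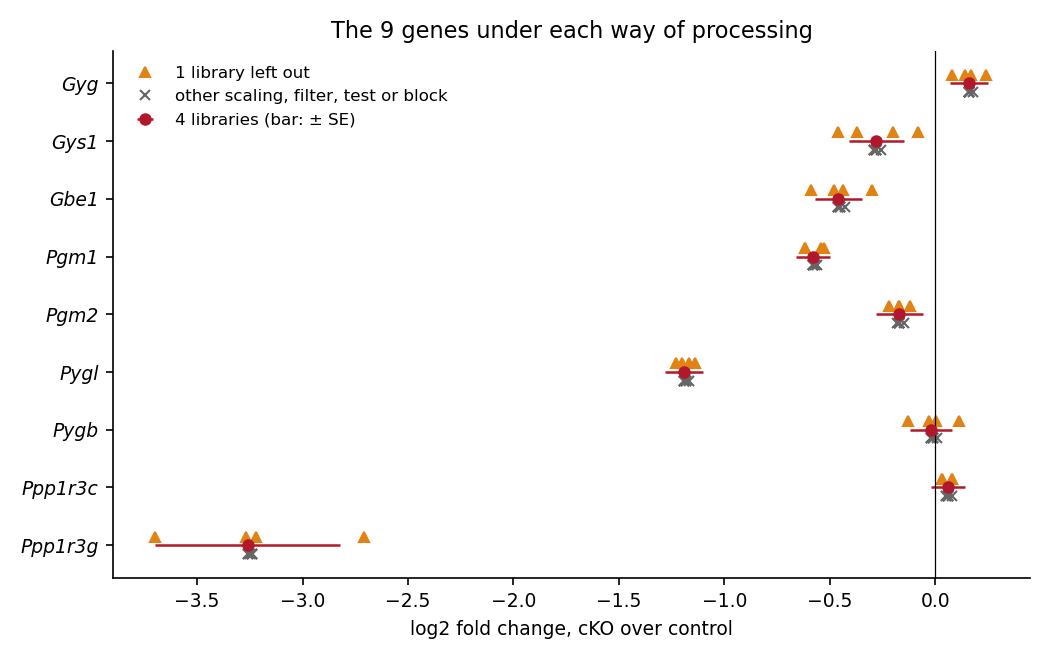
Log2 fold change (cKO over control) of each of the 9 genes in the fit to 4 libraries (red circle, bar ± SE), with 1 library left out (orange triangles) and under other scalings, filters, tests or the replicate block (grey crosses). Gys1, Gbe1 and Ppp1r3g spread most when a library is left out, and Pygl stays between -1.23 and -1.14.

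Levels can be compared between genes only per length, here as mean CPM per kb of the longest coding transcript that the deposited table lists. In cKO the order was Gyg (715), Pygb (89.0), Pgm1 (56.6), Ppp1r3c (51.1), Gys1 (41.6), Gbe1 (17.3), Pgm2 (8.41), Pygl (6.71) and Ppp1r3g (0.192). In control it was Gyg (642), Pygb (89.9), Pgm1 (84.5), Gys1 (50.8), Ppp1r3c (49.1), Gbe1 (23.7), Pygl (15.3), Pgm2 (9.44) and Ppp1r3g (1.72). Pygb and Pgm1 overlapped between control libraries (82.2 and 97.7 against 81.9 and 87.0 CPM per kb), as did Gys1 and Ppp1r3c. Pgm1 was clearly below Pygb in the cKO libraries. With all annotated exons as the length, Pygl came below Pgm2 in control as well (6.62 against 8.63), and Gys1 below Ppp1r3c (39.0 against 49.1), so these places depend on the length used.

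On the same per-kb scale Pygl made up 3.76% and 3.77% of phosphorylase transcripts in cKO, against 9.19% and 7.26% in control. Pygm made up 46.2% and 46.5% in cKO and 42.7% and 44.8% in control, and Pygb the rest. The 3 phosphorylases together came to 180 and 177 CPM per kb in cKO and 171 and 204 CPM per kb in control, so that their sum overlapped between the groups. Pgm1 held 55.8% and 57.8% of the transcripts of its 4-gene family in cKO and 63.9% and 65.8% in control. That family's sum did not overlap, at 98.8 and 100.4 CPM per kb in cKO and 128 and 132 in control. Among the 7 glycogen-targeting PP1 subunits, Ppp1r3c held 57.9% and 57.7% in cKO and 53.6% and 53.4% in control, and Ppp1r3g 0.286% and 0.147% in cKO against 1.88% and 1.86% in control. Because a share falls or rises with the other members, these values restate the levels above and add no independent evidence.

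**Figure D4:**
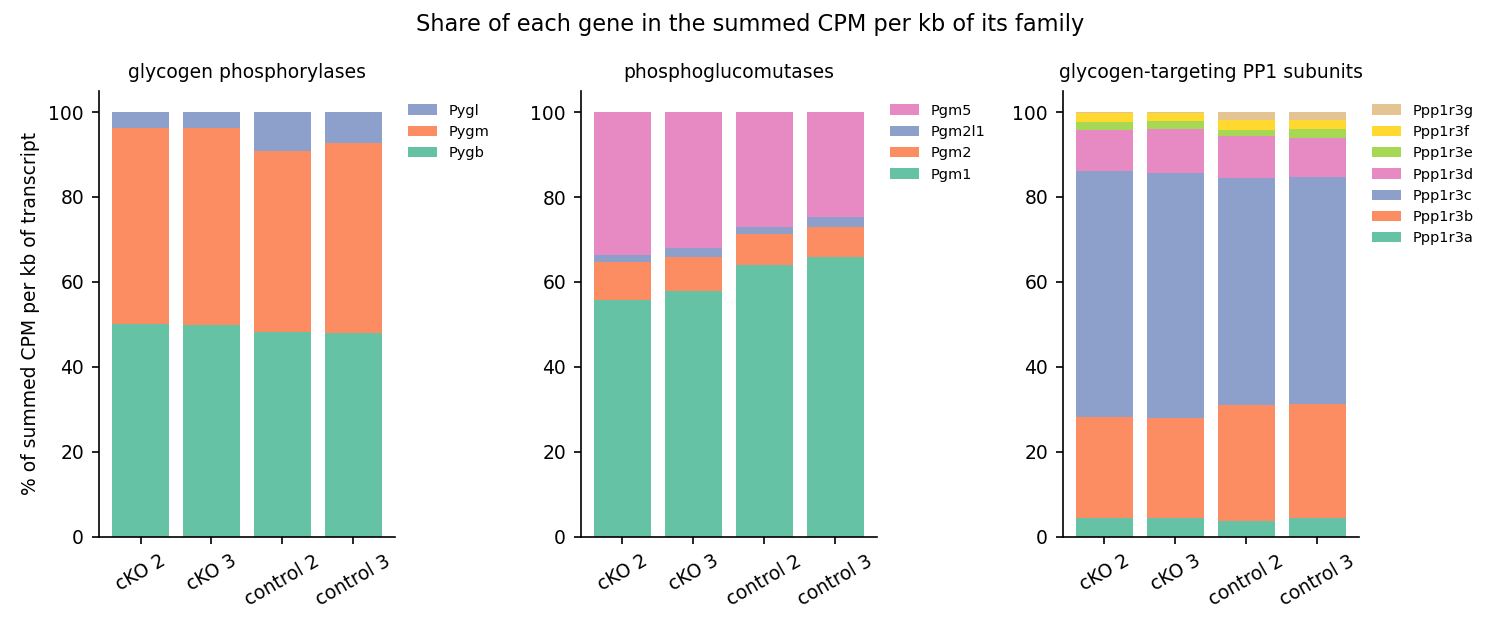
Share of each gene in the summed CPM per kb of its family (stacked bars, in percent) for cKO replicates 2 and 3, then control replicates 2 and 3. The Pygl band narrows to 3.76% and 3.77% in cKO, against 9.19% and 7.26% in control, while Ppp1r3c keeps over 53% of its family in each library.

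The rest of the pathway was taken from a list of 34 other genes drawn up by textbook role. Of these, 32 were measured, and Gys2, the liver glycogen synthase, and G6pc, the liver glucose 6-phosphatase, had 0 counts in all 4 libraries, where 3 counts would be 0.151 to 0.355 CPM. In edgeR's test 0 of the 32 passed, where 0.511% of all genes did, and DESeq2 and limma-voom also called 0. With so low a share over all genes and 2 embryos a group, a count of 0 is near the background and does not show that these genes were alike in both groups. Adjusted p ranged from 0.466 to 0.999. At an unadjusted p under 0.05 there were 5, all lower in cKO, where 6.97% of all genes had such a p and 3.58% had it as lower. The median log2 fold change was -0.02 over the list and -0.000 over all genes tested.

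Ugp2 makes UDP-glucose, the donor for glycogen synthase. It had 276 and 262 CPM in cKO and 281 and 269 CPM in control, with a log2 fold change of -0.03 ± 0.08 (edgeR adjusted p = 0.953), and the groups overlapped. Pygm, the muscle phosphorylase, had 239 and 236 CPM in cKO and 210.2 and 262 CPM in control, and both cKO libraries lay between the controls (0.01 ± 0.11, edgeR adjusted p = 0.993). Gaa, the lysosomal glucosidase that also breaks down glycogen, had 191 and 159 CPM in cKO and 163 and 187 CPM in control. Its groups overlapped and its log2 value was -0.0035 ± 0.11 (edgeR adjusted p = 0.998), with a sign that turned under upper-quartile scaling.

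Among regulators of the PP1 step, Ppp1cb and Ppp1cc, which encode catalytic subunits, had log2 fold changes of -0.02 ± 0.09 and -0.13 ± 0.08 (edgeR adjusted p = 0.972 and 0.774). Ppp1cc has near-identical copies elsewhere in the genome, so its value is uncertain. Ppp1cb shares 1908 exon bases with another annotated gene on its own strand, so reads there cannot be assigned for certain. The other targeting subunits, Ppp1r3a, Ppp1r3b, Ppp1r3d, Ppp1r3e and Ppp1r3f, ranged from -0.29 to 0.03, and the 5 subunits of phosphorylase kinase, the enzyme that switches phosphorylase on, from -0.07 to 1.03. Ppp1r3f, at -0.29, shares 2415 exon bases with another annotated gene on its own strand, so its value is uncertain too. The high end of the kinase is Phkg1, named after its values were seen, at 3.14 and 1.51 CPM in cKO and 0.827 and 1.32 CPM in control, and it overlaps Sumf2 on the other strand. Phkb and the X-linked Phka2, the 2 with the highest mean CPM, stood at 0.04 ± 0.09 and -0.07 ± 0.08 (edgeR adjusted p = 0.951 and 0.897).

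The kinases that restrain glycogen synthase included Gsk3b, at 0.13 ± 0.08 (edgeR adjusted p = 0.780), and Prkaa2, the AMPK catalytic subunit of muscle, at -0.12 ± 0.08 (edgeR adjusted p = 0.786). The 9 genes of GSK3 and AMPK ranged from -0.33 to 0.13, with 4 negative and 5 positive. Stbd1, which tethers glycogen to membranes, was at -0.03 ± 0.09 (edgeR adjusted p = 0.962). Epm2a, the glycogen phosphatase laforin, had 9.41 and 7.33 CPM in cKO and 14.5 and 11.1 CPM in control; the groups did not overlap, and the value of -0.64 ± 0.21 on the log2 scale was not called (edgeR adjusted p = 0.565) and ran from -0.81 to -0.42 with 1 library left out.

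At the glucose 6-phosphate end, Slc37a4, its transporter into the endoplasmic reticulum, had the smallest adjusted p of the list. It had 14.2 and 12.4 CPM in cKO and 18.4 and 18.4 CPM in control, and a log2 fold change of -0.48 ± 0.14 (edgeR adjusted p = 0.466). G6pc3, the broadly expressed glucose 6-phosphatase, was at 0.09 ± 0.13 (edgeR adjusted p = 0.910). Of the other phosphoglucomutases, Pgm2l1, which makes glucose 1,6-bisphosphate, was at -0.46 ± 0.17 and Pgm5, a structural relative found at cell contacts in muscle, at -0.04 ± 0.08 (edgeR adjusted p = 0.630 and 0.941). Leaving out control replicate 3 moved Pgm2l1 to -0.22, and leaving out control replicate 2 moved it to -0.67. The remaining genes with an unadjusted p under 0.05, named after their values were seen, were Prkab2, an AMPK beta subunit (-0.25 ± 0.08), and Ppp1r3b, a PP1 targeting subunit (-0.24 ± 0.08).

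**Figure D5:**
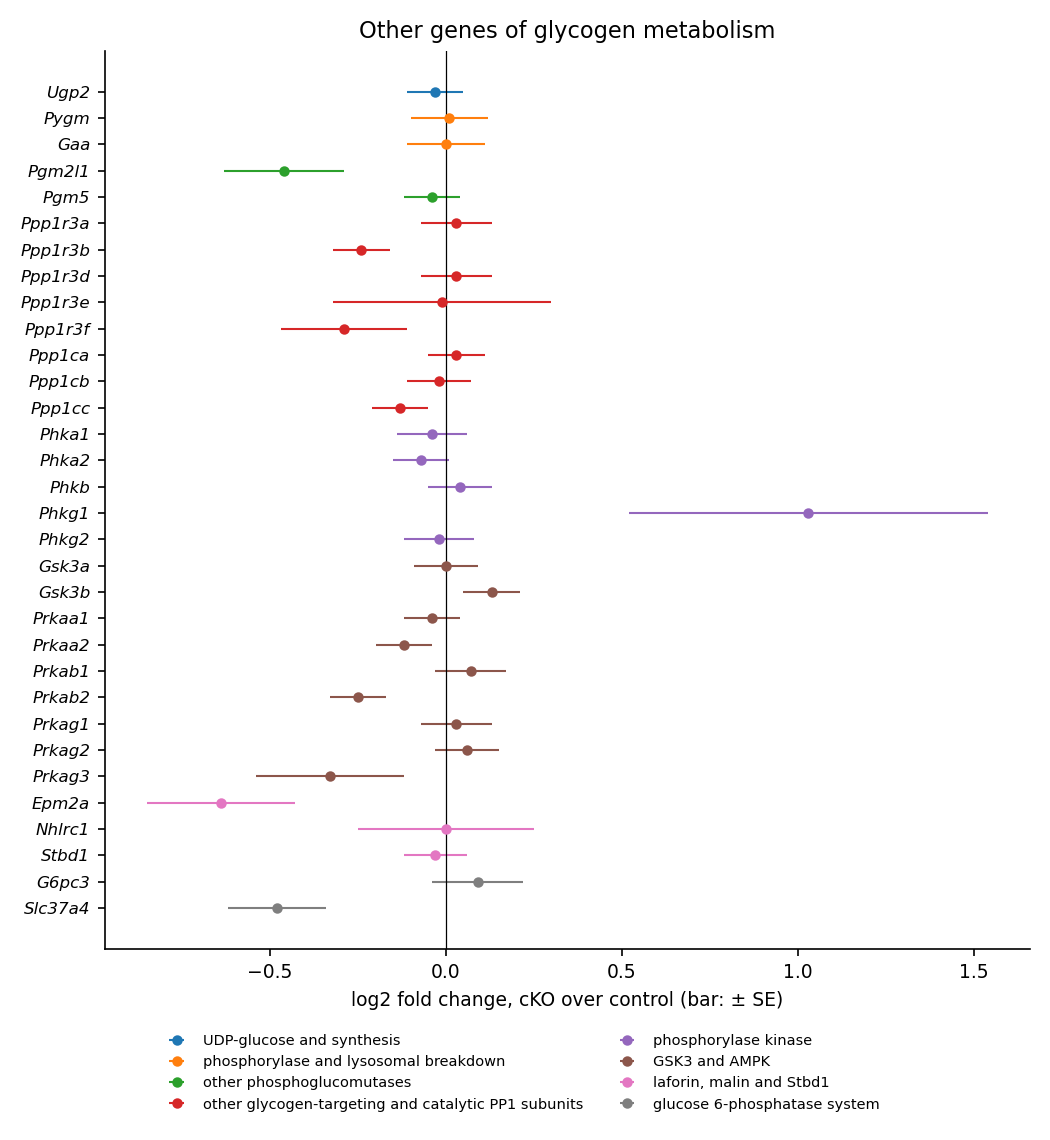
Log2 fold change (cKO over control, bar ± SE) of the 32 measured genes of the wider glycogen list, coloured by role. Phkg1 at 1.03 has the widest bar, and Epm2a at -0.64 is the lowest.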

How the data were processed

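The deposited table holds expected counts for each Ensembl gene, estimated counts that need not be whole. Tools named in the submitters' processing notes are RSEM 1.2.3, cutadapt 1.3 and CASAVA 1.8.2, with the build GRCm38; annotation and settings: not given in the sources used here. Symbols, positions and exons came from GENCODE release M21. Counts were rounded, filtered by edgeR's filter by group (minimum count 10, total 15), scaled by TMM and fitted with edgeR 4.0.16 (glmQLFit and glmQLFTest, R 4.3.3, group only, 2 residual degrees of freedom), with Benjamini-Hochberg adjustment over 13711 genes and a threshold of 0.05. SEs were derived from the F statistic (absolute log2 value over root F). For the 3 called genes DESeq2 gave larger SEs than edgeR: 0.18 against 0.09 for Pygl, 0.11 against 0.08 for Pgm1 and 0.70 against 0.44 for Ppp1r3g. Steps were tested on simulated counts. Alternatives were DESeq2 1.42.0, limma-voom 3.58.1, other scalings and filters, the replicate block and each library left out. BLAST 2.17.0 looked for transcripts at least 95% identical over 300 bases; none of the 9 genes had one. The 9 genes, lists and tests were chosen with earlier results of these data known; the genes named by rule are the 9, any called gene of the wider list, the 2 of each role with the highest mean CPM, Hif1a and Nkx2-5. One further gene was left out of the wider list and is not reported here. Embryos are separate animals of 1 litter.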

Additional observations from a re-analysis of the deposited data

How the results depend on the processing

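The 3 calls among the 9 genes (Pygl, Pgm1, Ppp1r3g) held under DESeq2's size factors, upper-quartile scaling, DESeq2's and limma-voom's tests, no filter and the replicate block; a mean of at least 5 CPM left Ppp1r3g out of the test and 2 calls. With 1 library left out, 1 to 2 of the 9 genes were called and their median log2 fold change ran from -0.46 to -0.17. The same fits gave 39 to 141 calls over all genes, against 70; leaving out cKO replicate 2 gave the most and control replicate 3 the fewest. A lone library is then assumed to vary like the other group. Without cKO replicate 2, the lone cKO library is the male one, so sex and group cannot be told apart in that fit. The wider list had 0 calls in every setting. The replicate block gave 75 calls, 69 of them among the 70; the 2 libraries sharing a number had deviations with a correlation of 0.106, and no label says what a number stands for, so these are not treated as pairs. Genes higher in cKO numbered 20, against 31 under DESeq2, 10 with the stricter filter, where fewer genes are tested, and 15 to 72 with 1 library left out (72 without cKO replicate 2). Genes lower in cKO numbered 50, against 24 to 69 with 1 library left out (24 without control replicate 3). Signs turned for 7 genes whose values lay within their SE of 0. Under upper-quartile scaling Pygb was 0.01, Ppp1cb 0.0010 and Gaa 0.02 (0.0022 with no filter). With a library left out, log2 fold changes ran from -0.13 to 0.11 for Pygb (0.0019 without cKO replicate 3), from -0.07 to 0.01 for Ugp2 (0.0004 without control replicate 2), from -0.14 to 0.18 for Pygm (-0.0014 without cKO replicate 2), from -0.08 to 0.04 for Ppp1cb, from -0.03 to 0.11 for Phkb, from -0.10 to 0.03 for Stbd1 and from -0.14 to 0.12 for Gaa. Hif1a passed with DESeq2's test (adjusted p = 0.0286). For none of these was the cause tested.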
